A study of Mus musculus with 18 samples.

Results

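The distal 5 Mb of the mouse autosomes were examined for CpG methylation in embryonic stem cells (ESCs) with and without deletion of Dnmt1. The ends were defined as the tiles of 100 kb that start within 5 Mb of the highest position with a methylation call on each of chromosomes 1 to 19. Cytosines with more than 20 calls in any library were left out. This gave 950 tiles of 24731 autosomal tiles, 50 on each of the 19 chromosomes. Calls fell in 949 of them, and 945 of the 23759 tiles that reached 50 calls in every library were distal. The 5 distal tiles that did not reach this limit lie on chromosomes 2 (2 tiles), 6, 7 and 16, and the tile of chromosome 16 holds no sequenced base. Each end was compared with the rest of its own chromosome.

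Methylation was read by whole-genome bisulfite sequencing in 18 libraries. Bisulfite leaves methylated cytosine in place, so each read over a CpG gives a methylated or an unmethylated call. There were 9 control libraries, labelled wild type, and 9 Dnmt1 KO libraries, from days 1, 3, 6, 9 and 11. Each genotype had 2 replicates per day and 1 library at day 6. The labels give E14 as the strain for all libraries. The methods describe C57BL/6 ESCs with both Dnmt1 alleles flanked by loxP sites, in which Cre was induced with tamoxifen, in serum and LIF. Whether the controls came from the same line is not settled by these sources, so genotype and line cannot be told apart. Nothing states that replicates were separate cultures, so the p-values measure the spread between these libraries. Libraries held 7190722 to 11158414 calls, and 0.228% to 0.467% of mitochondrial calls were methylated. From exon 4 to exon 5 of Dnmt1, control libraries held 2 to 18 calls each. The Dnmt1 KO libraries held 2 calls in all at day 1 and 0 from day 3, where each library's 0 allows up to 3 calls.

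DNMT1 is the maintenance methyltransferase, which copies CpG methylation onto the new strand after replication. The de novo enzymes DNMT3A and DNMT3B can add methylation without a methylated template. Mouse autosomes carry the centromere at the end where coordinates begin, so the distal end lies at the highest coordinates of the long arm. Telomeres consist of repeats of the unit TTAGGG, and copies of this repeat also occur inside chromosomes. Regions beside telomeres are often rich in GC and in genes, although this differs between chromosomes.

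The distal tiles differ widely in sequence. The windows of 200 bases with the most calls are shown for 3 tiles that lead the comparisons below, with CpGs in capitals, 5′ to 3′ on the plus strand of NCBIM37. The tiles are the highest against the rest of the chromosome in control, ranked in points, and those with the most positive and the most negative change in Dnmt1 KO, ranked in log odds. The window in Tbcd, which encodes a tubulin folding cofactor, lies in an intron (chr11:121443601-121443800, ENSMUSG00000039230.8) and holds 8 CpGs. The window in Zic2, a zinc finger gene of neural development, overlaps an exon (chr14:122875401-122875600, ENSMUSG00000061524.7) and holds 19. The last window is intergenic (chr12:116864001-116864200) among immunoglobulin heavy chain variable segments, 2195 bases from Gm16708, and holds 3.
Tbcd: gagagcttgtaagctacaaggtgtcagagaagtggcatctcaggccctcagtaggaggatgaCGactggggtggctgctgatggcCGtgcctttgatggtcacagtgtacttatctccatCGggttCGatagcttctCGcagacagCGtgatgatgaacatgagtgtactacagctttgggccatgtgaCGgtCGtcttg
Zic2: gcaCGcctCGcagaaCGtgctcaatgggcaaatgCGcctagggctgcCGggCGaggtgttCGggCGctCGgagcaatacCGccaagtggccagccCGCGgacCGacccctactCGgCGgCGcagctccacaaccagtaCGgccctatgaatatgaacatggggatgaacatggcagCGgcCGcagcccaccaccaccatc
Ighv: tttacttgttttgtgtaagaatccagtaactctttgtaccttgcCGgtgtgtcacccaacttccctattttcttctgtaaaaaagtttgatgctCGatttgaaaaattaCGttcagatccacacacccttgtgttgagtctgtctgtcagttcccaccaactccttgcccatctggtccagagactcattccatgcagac

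The Tbcd window was methylated in 37 of 48 control calls, or 77.1% (95% exact interval 62.7% to 88.0%). At days 9 and 11 of Dnmt1 KO it was methylated in 1 of 24 calls, or 4.17% (0.105% to 21.1%). The Zic2 window had 1 of 80 methylated calls in control and 0 of 28 in Dnmt1 KO, which allows up to 10.7%, so no difference was detectable there at this depth. The Ighv window was methylated in 13 of 15 control calls, or 86.7% (59.5% to 98.3%), and in 0 of 5 in Dnmt1 KO, which allows up to 60%. Such intervals describe counting error alone, since neighbouring calls can share a read and reads can share a molecule.

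Methylation of the distal tiles fell steeply between days 1 and 6 of Dnmt1 KO and then held its level. In control, the pooled distal level was 74.7% and 72.5% at day 1, 72.71% and 72.72% at day 3, 76.5% at day 6, 74.99% and 73.7% at day 9, and 68.0% and 68.2% at day 11. The day 11 controls were the lowest of the 9. In Dnmt1 KO it was 67.6% and 67.7% at day 1, 32.5% and 33.5% at day 3, 23.9% at day 6, 24.4% and 25.3% at day 9, and 23.7% and 24.3% at day 11. The groups did not overlap at any day. Averaged over the days, the level fell by 38.4 percentage points (exact permutation of genotype within days, two-sided, p = 0.00077, the smallest this test can give, adjusted p = 0.0027 over 7 tests). At day 1 the distal level of Dnmt1 KO was 91.8% of that of control, and at days 3, 6, 9 and 11 it was 45.4%, 31.3%, 33.4% and 35.3%. A lower level cannot tell fewer methylated cells from less methylation in each cell.

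**Figure D1:**
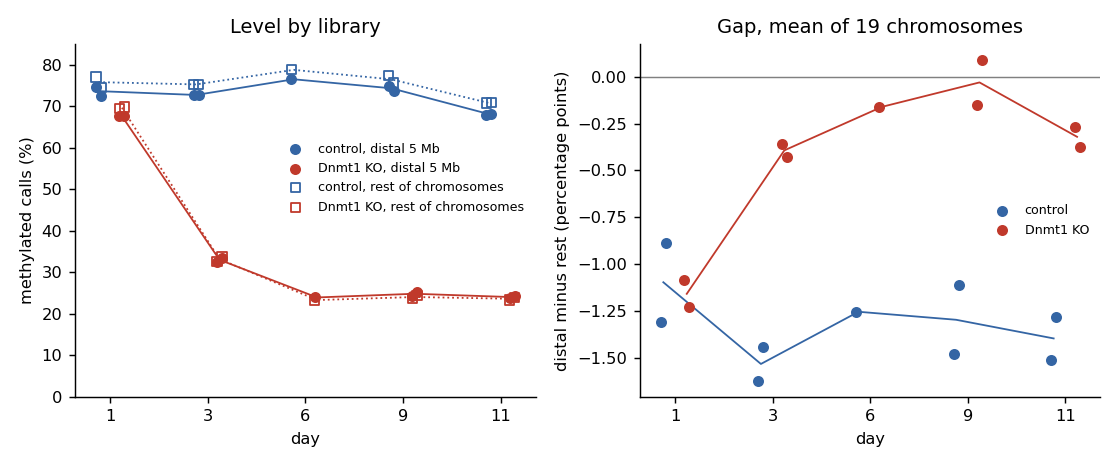
Methylation of the distal 5 Mb and the rest of the chromosomes by day. Left, percent of methylated calls in each library (filled circles, distal, and open squares, rest), with lines through the means per day, and right, the distal level minus that of the rest of the same chromosome, averaged over 19 chromosomes, in percentage points. All 9 control libraries lie below 0 on the right, between -1.62 and -0.886.

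On average over the 19 chromosomes, distal ends were slightly less methylated than the rest in control. The gap, defined as the distal level minus that of the rest of the same chromosome and averaged over the 19 chromosomes, was -1.32 ± 0.225 percentage points (SD, n = 9). The lowest, median and highest control values were -1.62, -1.31 and -0.886, so every control library lay below 0 (exact sign-flip test, p = 0.0039, adjusted p = 0.0068). By chromosome, 11 ends lay below their rest in control and 8 above. The lowest were those of chromosome 15, at -12.6 points, and chromosome 10, at -9.17 to -7.21 points over the control libraries. The distal gap in control was -0.32 points with ends of 10 Mb and -3.19 with ends of 1 Mb. In Dnmt1 KO the gap was -1.09 and -1.23 at day 1, within the control range. It was -0.357 and -0.429 at day 3, -0.16 at day 6, -0.15 and 0.09 at day 9, and -0.268 and -0.373 at day 11. All 7 values from day 3 on lay above all 9 control values. From day 3 to 11 the Dnmt1 KO gap was -0.235 ± 0.178 points (n = 7, exact sign-flip p = 0.031, adjusted p = 0.044). The call is lost without any 1 of 6 of these 7 libraries, that of day 6 among them, where p is 0.0625. Its direction also turned, to 0.382 points with calls pooled over the autosomes (exact sign-flip p = 0.0625) and to 2.54 points with ends of 10 Mb (exact sign-flip p = 0.016). Pooled over all ends, the distal level at days 9 and 11 was 24.4% ± 0.648 and that of the rest 23.8% ± 0.458 (n = 4). Over all days the gap was 0.903 points higher in Dnmt1 KO than in control (exact permutation p = 0.0031, adjusted p = 0.0068). With ends of 1 Mb it was lower instead, at -1.26 points (exact permutation p = 0.0031).

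A gap in points shrinks when all levels fall in equal proportion, whereas the ratio of distal to rest then stays the same. The ratio was therefore compared as well. The mean log2 ratio was -0.028 in control and -0.031 in Dnmt1 KO over the 5 days, and the difference of -0.0029 did not pass the test (exact permutation p = 0.41, adjusted p = 0.41). It passed at -0.019 with all listed cytosines kept (exact permutation p = 0.00077), and with the opposite sign at 0.058 with calls pooled over the autosomes (exact permutation p = 0.0039). In sparse CpGs, with under 10 CpGs within 250 bp on either side, the difference was 0.0029 (exact permutation p = 0.11, adjusted p = 0.13). This value passed without chromosomes 8, 14 and 17 (0.012, exact permutation p = 0.00077), with pooled calls (0.052, exact permutation p = 0.0015) and without Dnmt1 KO day 11 replicate 2 (0.0037, exact permutation p = 0.039). It was -0.0029 with sparse taken as under 15 CpGs (exact permutation p = 0.46). The length of the end moved the ratio as well. For the last 1 Mb the log2 ratio changed by -0.20 in Dnmt1 KO (exact permutation p = 0.0015), and for the last 10 Mb by 0.12 (exact permutation p = 0.0023).

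This near-zero mean hid chromosome ends that moved in opposite directions. The ratio changed with genotype at 18 of the 19 ends (exact permutation within days, Benjamini-Hochberg over 19). It rose at 13 ends and fell at 5, those of chromosomes 3, 12, 13, 17 and 18. These directions are for ends of 5 Mb. Single ends were not tested at 1 Mb or 10 Mb, where the mean log2 ratio changed by -0.20 and 0.12. From day 3 on, the Dnmt1 KO and control ratios did not overlap at 16 ends. The end of chromosome 10 did not pass, with a log2 change of 0.0083 (exact permutation, adjusted p = 0.36). Chromosome 7 passed narrowly (log2 change of 0.02, exact permutation, adjusted p = 0.049). With replicate numbers taken as blocks it did not pass (exact permutation, adjusted p = 0.062). The chromosomes are not replicates of each other. Other stretches of 5 Mb were not tested in this way, so these counts are not shown to be particular to the ends. Among the single tiles tested below, the deviation changed with genotype in 51.2% of distal tiles and 57.1% of all tiles. In sparse CpGs alone, 18 ends also passed, 13 upward and 5 downward, and no end had the other sign.

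**Figure D2:**
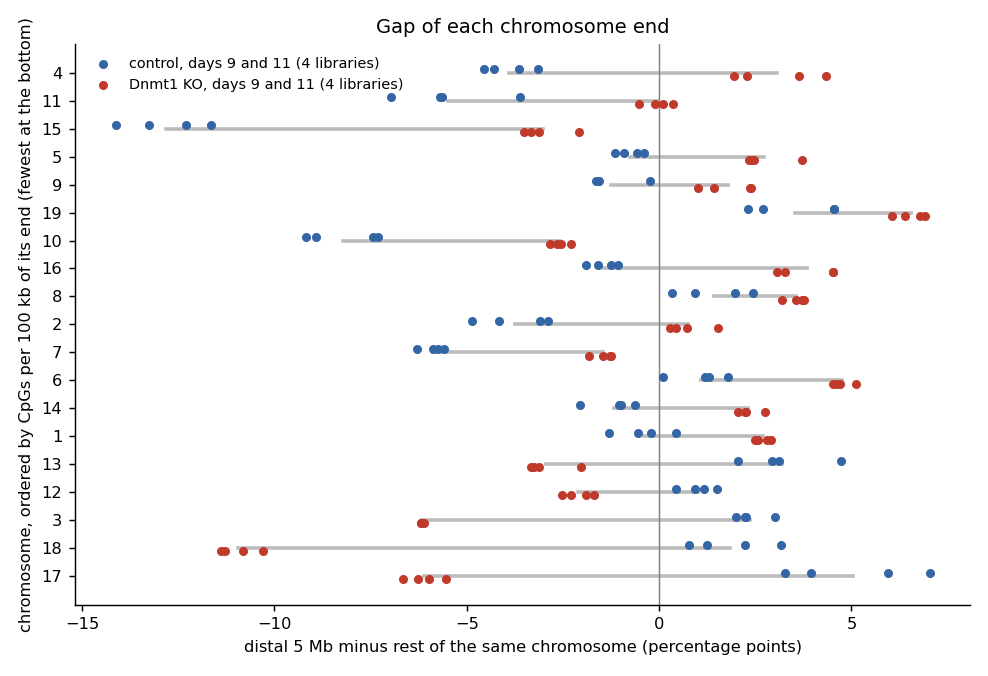
Gap of each of the 19 chromosome ends at days 9 and 11. Points are single libraries (4 per genotype), grey bars join the means, the x axis is the distal level minus that of the rest of the same chromosome in percentage points, and chromosomes are ordered by CpG density of their end; the 5 ends with the fewest CpGs moved from above 0 in control to below 0 in Dnmt1 KO.

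The end of chromosome 18 (chr18:85800001-90771362), which holds 8 protein-coding genes, departed most from its chromosome in Dnmt1 KO. Its distal level was 74.0% to 81.4% over the 9 control libraries. In Dnmt1 KO it was 71.8% and 72.8% at day 1, 25.97% and 28.6% at day 3, 13.3% at day 6, 13.2% and 15.2% at day 9, and 13.7% and 13.6% at day 11. At days 9 and 11 this was 18.2% of the control level, against 33.4% for the rest of chromosome 18. The gap of this end was 1.99 points in control and -10.9 in Dnmt1 KO at days 9 and 11. Fewer calls per CpG fell there than on the rest of the chromosome, with a log2 coverage ratio of -0.26 in control and -0.18 in Dnmt1 KO.

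The ends of chromosomes 17 and 3 followed a similar course. The end of chromosome 17 (chr17:90300001-95272331), with 6 protein-coding genes, reached 17.9% and 18.4% at day 9 and 17.6% and 17.2% at day 11 of Dnmt1 KO, from 73.7% to 80.7% in control. Its log2 coverage ratio was -0.41 in both groups. The end of chromosome 3 (chr3:154600001-159599273) reached 17.3%, 17.99%, 17.1% and 17.7% in the same libraries. Both ends were above the rest of their chromosomes in control, by 4.70 and 1.87 points. In Dnmt1 KO at days 9 and 11 their gaps were -6.12 and -6.16 points.

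The end of chromosome 19 (chr19:56400001-61342375) stood at the other extreme. It kept 29.9% and 31.3% at day 9 and 29.3% and 30.8% at day 11, which is 40.3% of the control level, against 33.2% for its rest. Its gap was 3.13 points in control and 6.54 in Dnmt1 KO. The end of chromosome 15 (chr15:98500001-103494820), which carries keratin and Hoxc genes, was the lowest in control. It held 57.1% to 66.1% over the control libraries, at a gap of -12.6 points. In Dnmt1 KO its gap was -3.01 points, with levels of 20.6%, 22.3%, 19.8% and 20.4% at days 9 and 11. Between control and Dnmt1 KO at days 9 and 11 the gap had opposite signs at 12 of 19 ends.

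On the log2 scale, the ratios of the 19 ends spread apart as methylation was lost. This spread, the SD over the 19 ends of the log2 ratio, was a measure added after the data had been seen. It was 0.094 ± 0.017 in control (n = 4) and 0.30 ± 0.011 in Dnmt1 KO (n = 4) at days 9 and 11. At day 3 the Dnmt1 KO libraries had 0.14 and 0.13, and at day 1 they had 0.076 and 0.079, below both control libraries of that day. Over all days the spread was 0.135 higher in Dnmt1 KO (exact permutation p = 0.0046, adjusted p = 0.0046 over 4 added tests). In points, the lowest and highest gaps of single ends at day 9 averaged -12.0 and 3.61 in control. In Dnmt1 KO they were -10.8 and 6.60. At day 11 they were -13.7 and 6.49 in control and -11.1 and 6.48 in Dnmt1 KO. The spread in points was not tested. A spread of log2 ratios also grows when gaps in points stay the same while levels fall.

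The ends differ in how densely they carry CpGs. The 5 ends with fewer CpGs per 100 kb than the rest of their chromosomes were those of chromosomes 3, 12, 13, 17 and 18. In control they lay 0.904 to 4.70 points above the rest, and in Dnmt1 KO at days 9 and 11 all 5 lay below it, with gaps from -10.9 to -2.10. The ratio fell at the ends of these 5 chromosomes. Of the 14 ends with more CpGs than their rest, 11 lay below the rest in control and 4 in Dnmt1 KO, where their gaps ran from -3.01 to 6.54 points and so overlapped with those of the 5 ends. The fewest CpGs were at the ends of chromosomes 17 (487 per 100 kb), 18 (501) and 3 (521), and the most at that of chromosome 4 (1514). Over the 19 ends, CpG density correlated with the gap at r = -0.655 in control and r = 0.573 in Dnmt1 KO (Spearman's rho = -0.628 and 0.474). The number of protein-coding genes, from 6 to 163 per end, correlated with the gap at r = -0.925 in control and r = 0.0945 in Dnmt1 KO (rho = -0.832 and 0.242). These correlations describe ends that share libraries and base composition, so no p is given.

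**Figure D3:**
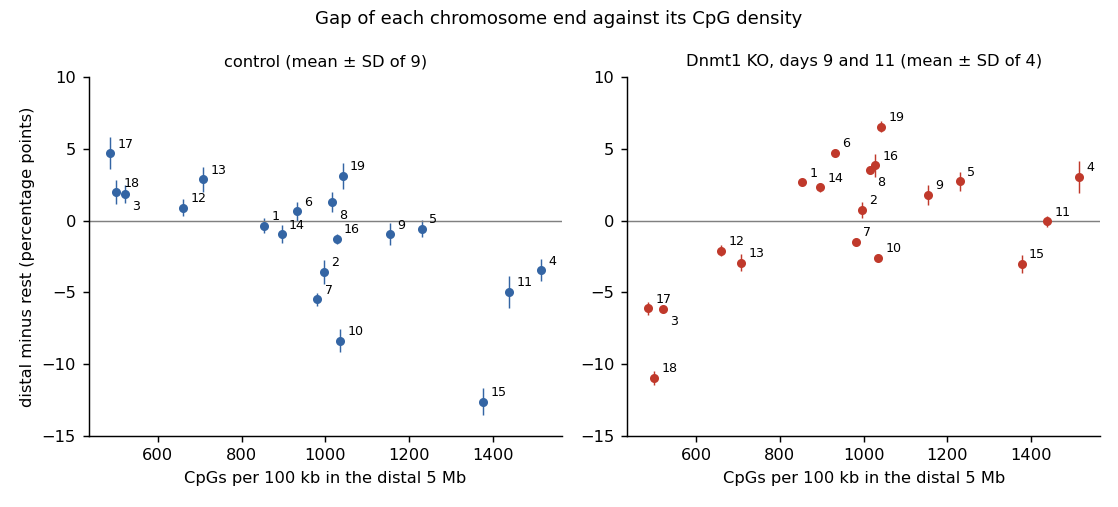
Gap of each chromosome end against its CpG density, with CpGs per 100 kb on the x axis and the gap in percentage points on the y axis, for control and for Dnmt1 KO at days 9 and 11. Each point is 1 of 19 ends, labelled by chromosome; density went with a lower gap in control (r = -0.655) and a higher gap in Dnmt1 KO (r = 0.573).

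Distal tiles were also set against tiles of similar CpG density. All tested tiles were ranked by CpGs per 100 kb and divided at the quartiles into 4 classes, a description added after the data had been seen. In the class with the fewest (300 to 566), distal tiles held 16.7% ± 0.461 and the rest 16.2% ± 0.447 in Dnmt1 KO at days 9 and 11 (n = 4). In the next class (566 to 781) the order was the other way, with 21.5% ± 0.411 in distal tiles and 22.4% ± 0.367 in the rest. The class above it held 27.0% ± 0.474 and 26.8% ± 0.427. In the class with the most, these values were 25.5% ± 0.949 and 25.1% ± 0.719. In control the class with the fewest CpGs was the most methylated, at 78.8% ± 2.28 in distal tiles and 80.4% ± 2.16 in the rest (n = 9). The next class held 77.6% ± 2.42 and 79.97% ± 2.30. The class with the most CpGs was the least methylated, at 69.3% ± 3.202 and 69.6% ± 3.24. In distal tiles the control level thus went down over the classes, whereas the Dnmt1 KO level went from 16.7% through 21.5% and 27.0% to 25.5%. Of the distal tiles, 38.9% fell in the class with the most CpGs.

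Within the 5 Mb, the outermost tiles kept the least methylation. At days 9 and 11 of Dnmt1 KO, the last 1 Mb held 19.6% ± 0.682 (n = 4), and successive steps of 1 Mb inward held 22.0%, 25.4%, 26.8% and 26.03%. Control values at the same steps were 69.8% ± 2.94 (n = 9), 71.5%, 73.4%, 74.7% and 72.7%. Dnmt1 KO thus kept 28.7% of the control level of days 9 and 11 in the last 1 Mb and 36.6% at 4 to 5 Mb. Tiles at 10 to 20 Mb kept 35.1%, those at 20 to 50 Mb 32.6% and those further inward 31.3%. The tiles at 4 to 5 Mb thus kept more than this interior. CpG density moved with distance as well, from 732 CpGs per 100 kb in the last 1 Mb to 1115 at 4 to 5 Mb, and its part in the gradient was not tested.

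**Figure D4:**
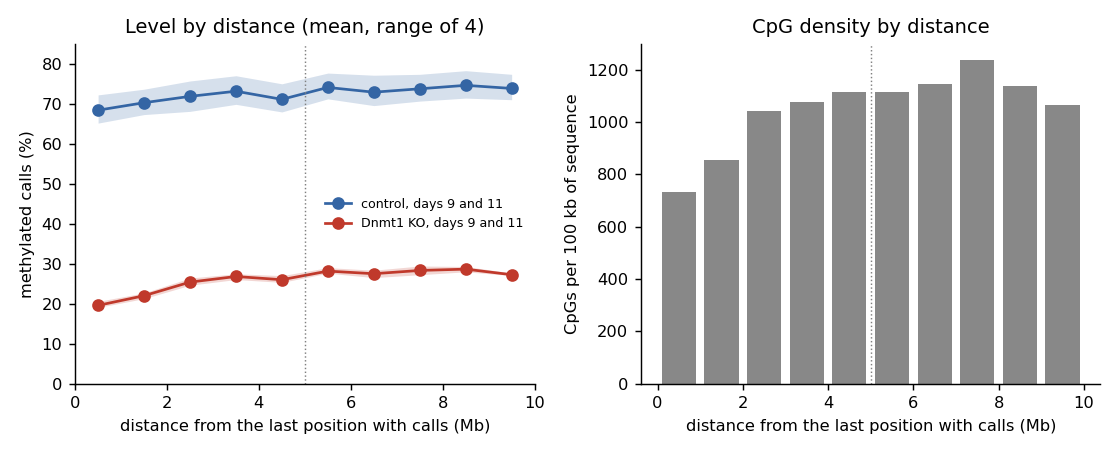
Methylation by distance from the distal end, with distance in Mb on the x axis and the percent of methylated calls on the y axis, for control and Dnmt1 KO at days 9 and 11. Points are means over 4 libraries per genotype, with bands from the lowest to the highest library. In Dnmt1 KO the level goes from 19.6% in the last 1 Mb to 28.2% at 5 to 6 Mb.

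The log2 ratio of the last 1 Mb over the tiles at 4 to 5 Mb, also added after seeing the data, was -0.053 ± 0.0086 in control (n = 9) and -0.35 ± 0.017 in Dnmt1 KO at days 9 and 11 (n = 4). Over all days it was lower in Dnmt1 KO, with a difference of -0.214 (exact permutation p = 0.0015, adjusted p = 0.0031). In sparse CpGs alone the difference was -0.228 (exact permutation p = 0.00077, adjusted p = 0.0031). In Dnmt1 KO the last 1 Mb was lower than the tiles at 4 to 5 Mb on 15 of 19 chromosomes, and in all 4 libraries on 14. In control it was lower on 14. On chromosome 19 the last 1 Mb held 16.2% ± 1.52 and the tiles at 4 to 5 Mb 36.0% ± 1.08. The exceptions were chromosomes 7, 11, 12 and 18. On chromosome 7 the last 1 Mb was the higher, at 22.5% ± 0.843 against 18.04% ± 0.661.

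**Figure D5:**
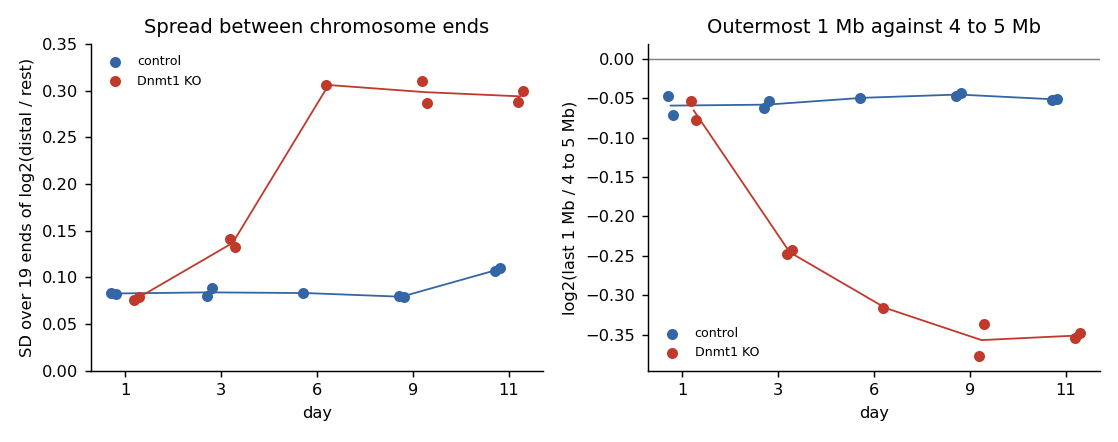
Spread of chromosome ends and level of the outermost 1 Mb by day. Left, SD over 19 ends of the log2 ratio of distal over rest in each library, and right, log2 ratio of the last 1 Mb over the tiles at 4 to 5 Mb; the 7 Dnmt1 KO libraries from day 3 on lie outside the control range in both.

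The opposite ends of the chromosomes were compared as well, in a measure added after the data had been seen. The first 5 Mb with calls, beside the centromere, had a gap of 0.13 ± 0.274 points in control (n = 9) and -2.27 ± 0.202 in Dnmt1 KO at days 9 and 11 (n = 4). The distal log2 ratio minus the proximal log2 ratio was 0.0997 higher in Dnmt1 KO over all days (exact permutation p = 0.0031, adjusted p = 0.0041). With 1 Mb at each end this difference was -0.104. The first 5 Mb held 799 CpGs per 100 kb and the distal 5 Mb 966. The part of CpG density in the difference between the ends was not tested.

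Single tiles were tested against the rest of their chromosome in a quasi-binomial model over all 23759 tiles. A tile was called in a group at an adjusted p under 0.05 and a deviation of at least 5 points. In control 515 of 945 distal tiles were called, or 54.5%, beside 60.4% of all tiles. Of these 297 were higher and 218 lower, or 31.4% and 23.1% of distal tiles, beside 44.1% and 16.3% of all tiles. In Dnmt1 KO at days 9 and 11, 492 were called, beside 49.1% of all tiles. Of these 208 were higher and 284 lower, or 22.0% and 30.1%, beside 18.4% and 30.7%. The change of a tile's deviation with genotype, called from 0.2 in log odds, passed for 484 distal tiles, beside 57.1% of all tiles. There were 204 rises and 280 falls, or 21.6% and 29.6%, beside 14.9% and 42.2%. At day 1, with a limit of 10 points on the level itself, 130 distal tiles were called, beside 14.5% of all tiles, of which 129 were lower in Dnmt1 KO and 1 was higher, beside 0.021% of all tiles higher. Leaving out control day 1 replicate 1 gave 18 called distal tiles, beside 359 of all 23759 tiles. Leaving out the Dnmt1 KO library of replicate 1 at day 1 gave 85, beside 1858 of all tiles.

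The changed tiles were unevenly spread over the ends. Over all tiles of the autosomes, 42.2% fell and 14.9% rose. On chromosome 18, 46 of 50 tested distal tiles fell and none rose, and on chromosome 17, 39 of 50 fell and none rose. Chromosomes 3, 13, 15 and 4 also had 50 tested distal tiles each. On chromosome 3, 44 fell and 1 rose, and on chromosome 13, 37 fell and 2 rose. On chromosome 15, 30 rose and 3 fell, and on chromosome 4, 20 rose and none fell. These counts are in log odds, in which a tile can rise without a rise of its ratio to the rest. Over all days, the log2 ratio of the whole end changed by 0.042 on chromosome 15 and by 0.174 on chromosome 4. Shares for the rest of single chromosomes were not compared, and neighbouring tiles are not independent.

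The tile lowest in control relative to its chromosome held the Hoxc genes Hoxc10, Hoxc9, Hoxc8, Hoxc6, Hoxc5 and Hoxc4 (chr15:102800001-102900000). Its control level was 31.1% ± 4.22 (n = 9, range 24.4% to 38.2%). At days 9 and 11 of Dnmt1 KO it held 9.0%, 7.6%, 8.1% and 6.4%. The tile of Zic5 and Zic2 (chr14:122800001-122900000) held 37.6% ± 5.77 in control and 12.7%, 12.6%, 14.5% and 11.02% in Dnmt1 KO. Its log odds against the rest rose by 0.96 (SE 0.13, quasi-binomial adjusted p = 5.4e-05), the most of all distal tiles. On a log2 scale with limma this tile was not called. Both tiles are rich in CpGs, with 1689 and 1833, and the second contains the Zic2 window printed above. The next lowest in control were the tile of Hoxc13, Hoxc12 and Hoxc11 (39.8% ± 6.09), that of Plekhn1 and Klhl17 on chromosome 4 (44.2% ± 8.48) and that of Sp8 on chromosome 12 (45.8% ± 6.99).

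The tiles highest above their chromosomes in control lay on chromosomes 11 and 19. That of Tbcd and B3gntl1 (chr11:121400001-121500000) held 85.8% ± 1.97 in control and 34.5%, 31.2%, 33.9% and 29.7% in Dnmt1 KO. The others were in Rptor, a subunit of the growth regulator mTORC1, also on chromosome 11, and in Gfra1, Atrnl1 and 1700011F14Rik on chromosome 19. In Dnmt1 KO the tile highest above its chromosome lay in Rps6kc1 (chr1:192600001-192700000), with 83.9% ± 3.89 in control and 42.2%, 42.1%, 40.8% and 45.6% at days 9 and 11. A tile with Ifltd1 and Tuba3b on chromosome 6 held 85.5% ± 2.28 in control and 40.9% ± 2.61 in Dnmt1 KO at days 9 and 11. All 4 Dnmt1 KO libraries of the Rps6kc1 tile were above 40%.

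Of the 5 tiles lowest relative to the rest of their chromosome in Dnmt1 KO, 1 was the tile of the Hoxc genes, and the other 4 had 428 to 607 CpGs. The tile of the olfactory receptor genes Olfr794, Olfr796, Olfr798, Olfr799 and Olfr800 (chr10:129000001-129100000) has 428 CpGs. It held 72.5% ± 5.51 in control and 9.0%, 3.9%, 8.5% and 10.97% in Dnmt1 KO. The tile with the Ighv window printed above (chr12:116800001-116900000) contains no protein-coding gene in the annotation. It held 77.0% ± 4.26 in control and 8.9%, 4.0%, 8.1% and 11.5% in Dnmt1 KO, and its log odds fell by 1.37 (SE 0.21, quasi-binomial adjusted p = 8.0e-05). On chromosome 18, tiles of Dok6 and Cbln2 were likewise among these 5, and on chromosome 14 a tile of Fgf14, which encodes a fibroblast growth factor homologous factor, was among the most negative changes. Across all distal tiles tested, control levels ran from 30.8% to 87.5% (median 77.6%) and Dnmt1 KO levels at days 9 and 11 from 7.71% to 42.7% (median 22.8%). These levels do not weight libraries equally, so the lowest in control differs slightly from the mean of 31.1% given for the Hoxc tile.

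Gene families at the ends were described by their gene bodies at days 9 and 11. Of 1106 autosomal Olfr genes, 69 were distal, 58 on chromosome 10 and 11 on chromosome 7. Their bodies held 78.7% and 82.8% at day 9 and 82.7% and 78.1% at day 11 in control, and 15.04%, 16.05%, 10.7% and 9.39% in Dnmt1 KO, from 162 to 243 calls per library. All 24 distal Krt genes, which encode keratins, of 51 autosomal ones, lay on chromosome 15. They held 71.9% ± 3.199 in control and 31.5% ± 2.89 in Dnmt1 KO (n = 4 each), with single libraries at 31.8%, 34.8%, 31.6% and 27.7%. The 4 Krt values lay above all 4 Olfr values in Dnmt1 KO, while in control all 4 Krt values lay below all 4 Olfr values. The difference between families was not tested. The 12 distal Zfp genes went from 57.5% ± 6.03 to 19.6% ± 2.08, and the 5 distal Vmn genes from 73.8% ± 6.52 to 14.9% ± 3.71.

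The distal end of chromosome 7 carries an imprinted cluster, in which expression depends on the parent of origin. All 14 listed genes found in the annotation were distal. H19, a non-coding RNA of the maternal allele, held 72.7% (16 of 22 calls, 95% exact interval 49.8% to 89.3%) in the 1 kb before its start in control at days 9 and 11. In Dnmt1 KO it held 3.33% (2 of 60, 0.406% to 11.5%). No single control library of days 9 and 11 had 10 calls there. The body of H19 held 72.1% (44 of 61 calls, 59.2% to 82.9%) in control. In Dnmt1 KO the H19 body held 34.2% (25 of 73, 23.5% to 46.3%). The body of Igf2, a growth factor of the paternal allele, held 29.3% (410 calls) in control and 6.74% (445 calls) in Dnmt1 KO. Single libraries ran from 6.52% to 41.5% in control and from 5% to 10.7% in Dnmt1 KO, so the groups overlapped. The body of Kcnq1, a potassium channel gene, held 74.7% (4354 calls, libraries from 69.6% to 78.2%) in control and 24.2% (3925 calls, libraries from 22.4% to 26.6%) in Dnmt1 KO. The bodies of Ascl2 and Phlda2 were low in both groups, at 1.54% and 1.28% in control and 1.23% and 0.685% in Dnmt1 KO, with overlapping intervals. Calls were pooled over 4 libraries, and alleles were not told apart.

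All 9 Hoxc genes, which pattern the body axis, were distal. Their bodies ran from 4.82% in Hoxc11 to 42.6% in Hoxc4 in control at days 9 and 11. In Dnmt1 KO they ran from 0 of 147 calls in Hoxc12, which allows up to 2.04%, to 10.6% in Hoxc4. Of 12 listed telomere genes found on autosomes, 1 was distal, the helicase gene Rtel1 on chromosome 2. Its body went from 74.9% (642 calls) to 23.2% (488 calls). The 1 kb before its start was at 6.06% (2 of 33) and 8.82% (3 of 34), which overlap in their intervals.

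The ends also differed from the rest in sequence features that played no part in their choice. GC content was 43.8% in distal tiles and 41.9% in the rest, with 966 and 846 CpGs and 85.7 and 58.8 densely placed CpGs per 100 kb. Protein-coding genes started 12.2 times per Mb in distal tiles and 8.82 times in the rest, and 1134 of 21418 autosomal protein-coding genes were distal. At least 2 copies in a row of TTAGGG, on either strand, occurred in 13.6% of distal tiles (129 tiles), 4.09% of the rest and 4.44% of the first 5 Mb. In the last 1 Mb this share was 20.5%. Distal tiles with such a pair held 73.5% ± 2.72 in control and 23.7% ± 0.753 in Dnmt1 KO at days 9 and 11, and those without held 72.6% ± 2.92 and 24.5% ± 0.660. The tiles with a pair were thus lower in Dnmt1 KO and higher in control. Both sets were read in the same libraries, so these SDs are not the spread of the difference between the sets. The tiles with a pair also held fewer CpGs, 924 against 973 per 100 kb. The difference in level between the sets was not tested. The longest run had 44 copies over 264 bases (chr2:181747658-181747921, plus strand), starting 361 bases past the last call of the chromosome. The tile that contains it held 69.6% ± 6.82 in control and 11.3% ± 0.743 in Dnmt1 KO.

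The ratio of distal to rest was also compared by the place of a CpG, with all classes but the sparse CpGs added after the data had been seen. In gene bodies the log2 ratio fell by 0.028 in Dnmt1 KO (exact permutation p = 0.0077, adjusted p = 0.023 over 6 classes). Between genes it was 0.025 higher (exact permutation p = 0.0039, adjusted p = 0.023). The gene body value turned to 0.095 over the last 10 Mb and to 0.043 with calls pooled over the autosomes. Sparse, intermediate and dense CpGs and promoters did not pass. Sparse CpGs at the ends went from 79.7% ± 2.71 in control (n = 9) to 25.5% ± 0.323 in Dnmt1 KO at days 9 and 11 (n = 4), and dense CpGs from 7.11% ± 0.853 to 3.26% ± 0.734.

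Calls per CpG were compared as a check on depth. The log2 ratio of distal to rest was -0.0097 in control and -0.034 in Dnmt1 KO, a difference of -0.024 (exact permutation p = 0.00077, adjusted p = 0.0027). With ends of 1 Mb it was -0.0054 and did not pass (exact permutation p = 0.74). Its part in the methylation results was not tested. The tested distal tiles received 50 to 1331 calls per library, with a median of 378.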

How the data were processed

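The authors trimmed paired reads with Trim Galore, aligned them to NCBIM37 with Bismark (0.12.3 in the submitters' processing notes, another version in the methods), removed duplicates and extracted CpG calls. The deposited files give counts of methylated and of unmethylated calls per cytosine and strand, without normalization, and a deposited percent that follows from the counts and was only checked. Groups, days and replicates came from the labels.

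Cytosines with over 20 calls in any library were left out, since such piles of calls in single places can outweigh a tile (5.45% to 9.36% of calls). Of 1842 such cytosines 29 were distal, all on chromosome 9. Counts were summed over tiles of 100 kb, and levels are percentages of methylated calls. Gaps and log2 ratios were averaged over 19 chromosomes with equal weight. Genotype was tested by exact permutation within days (2592 arrangements), and gaps by exact sign flips (512 and 128), all two-sided, with Benjamini-Hochberg adjustment. Tiles that reached 50 calls in each library were fitted with a quasi-binomial model with the level of the rest as offset, and dispersions were moderated with limma 3.58.1 in R 4.3.3. The fit was tried on simulated calls with less extra spread than the median of these data, few changed tiles and no link between neighbouring tiles. That trial therefore does not show how often calls are wrong here. Named tiles were the 5 most positive and the 5 most negative called in control, in Dnmt1 KO at days 9 and 11, and in the change. Named genes came from lists of the chromosome 7 imprinted cluster, Hoxc and telomere genes, and from the Olfr, Vmn, Zfp and Krt families. The regions, lists and tests were chosen with earlier results of these data known. Gene annotation was GENCODE on NCBIM37. Intervals are 95% Clopper-Pearson, and a count of 0 allows 3 calls. Alternatives were other spans, filters, scales, pooled calls and libraries left out. One named tile and the sequence of 1 window are not reported here.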

Additional observations from a re-analysis of the deposited data

Results flagged for a closer look

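The difference between genotypes was compared between day 1 and days 9 and 11, with labels permuted within days (216 arrangements, smallest p 0.0093, adjusted over 5 measures). These tests were added after the data had been seen. The genotype difference of the distal gap was -0.062 points at day 1 and 1.17 points at days 9 and 11, so it grew by 1.23 points (exact permutation p = 0.028, adjusted p = 0.046). The genotype difference of the spread over chromosome ends was -0.0055 at day 1 and 0.202 at days 9 and 11, a growth of 0.208 on the log2 scale (exact permutation p = 0.0093, adjusted p = 0.046). A gap in points shrinks when all levels fall in equal proportion. A spread of log2 ratios grows when gaps in points stay the same while levels fall. Levels of Dnmt1 KO fell between these days, so neither test can tell a change at the ends from an effect of scale. The genotype difference of the distal minus the proximal log2 ratio was -0.0016 at day 1 and 0.152 at days 9 and 11, a growth of 0.153 (exact permutation p = 0.028, adjusted p = 0.046). The part of CpG density in this growth was not tested. The genotype difference of the log2 ratio of the last 1 Mb over the tiles at 4 to 5 Mb went from -0.0062 at day 1 to -0.306 at days 9 and 11, a change of -0.299 that missed the threshold after adjustment (exact permutation p = 0.046, adjusted p = 0.058). That of the distal ratio changed by -0.0021, which did not pass (exact permutation p = 0.78).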

How the results depend on the processing

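The level and the distal gap in control kept their direction and their call with ends of 1 Mb and 10 Mb. Some other results did not. With 10 Mb, the Dnmt1 KO gap from day 3 was 2.54 points, the ratio change 0.119 and that of sparse CpGs 0.117. With 1 Mb, the gap change was -1.26 points, the ratio change -0.202, that of sparse CpGs -0.205, the distal minus proximal change -0.104, and the coverage change -0.0054, which no longer passed. With calls pooled over the autosomes, the Dnmt1 KO gap was 0.382 points, the ratio change 0.058 and that of sparse CpGs 0.052. Without chromosomes 8, 14 and 17 the ratio changes were 0.0048 and, in sparse CpGs, 0.012. Over all CpGs, the ends left out had themselves changed by 0.129 (chromosome 8), 0.104 (chromosome 14) and -0.365 (chromosome 17). The sparse change passed at 10 Mb, at 1 Mb, with pooled calls and without these chromosomes. With all listed cytosines kept the ratio change was -0.019 and passed. With sparse CpGs taken as under 15 their change was -0.0029. Without day 6 the Dnmt1 KO gap was -0.248 points and missed the threshold. By class, 10 Mb gave ratio changes of 0.069 in intermediate CpGs, 0.054 in promoters and 0.095 in gene bodies. Pooled calls gave 0.017, 0.036 and 0.043 for these and 0.055 in dense CpGs, where leaving out 1 library gave values from -0.051 to 0.0064, 0.0034 among them. The cause of these shifts was not tested.

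Leaving out 1 library at a time gave -0.289 to -0.203 points for the Dnmt1 KO gap, 0.0020 to 0.0039 for the sparse ratio, which passed without Dnmt1 KO day 11 replicate 2, and 18 to 150 distal tiles at day 1, beside 359 to 3510 of all 23759 tiles. Libraries of the same replicate number did not share deviations of single tiles (correlations of deviations -0.0029 to 0.0079). These deviations are taken against the rest of the chromosome, so the check cannot exclude a pairing that acts on whole libraries. With the replicate block, the exact permutation p was 0.0039 for the level, 0.012 for the gap and 0.41 for the ratio, 487 distal tiles changed, beside 13573 of all tiles, 114 were called at day 1, beside 3075, and 17 chromosome ends passed, with that of chromosome 7 lost (exact permutation, adjusted p = 0.062). Of the named tiles, 616 of 618 alternative values kept their call, but these tiles were chosen as the most extreme called ones. Many alternatives also left out a library that does not enter the contrast of the tile. The count therefore says little about how stable the calls are. With a median of 378 calls per tested distal tile and library, single CpGs were beyond this depth.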
